A study of Mus musculus with 18 samples.

Results

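The C/EBP transcription factor family was followed through its 6 genes, Cebpa, Cebpb, Cebpd, Cebpe, Cebpg and Ddit3, among 19938 genes measured on 18 microarrays of isolated mouse alveolar type II cells. Members were chosen by gene symbol. All 6 were found, each read by 1 feature of the array, with Entrez gene identifiers 12606, 12608, 12609, 110794, 12611 and 13198 in that order. Type II cells are the alveolar epithelial cells that make surfactant, and these came from mice 7 to 8 weeks old. The Cebpa-deleted groups carry the genotype CCSP/rtTA/CEBPa(flx/flx), and the controls are littermates of genotype CEBP/a(flx/flx) that had no rtTA or no Cre, so the floxed Cebpa gene is shared by every group. Cells of both genotypes were taken at 0, 2 and 24 h, which makes 6 groups of 3 arrays. The series design places these times in hyperoxia, breathing of oxygen-rich gas, whereas each sample description gives air.

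CCSP names the Clara cell secretory protein gene, whose promoter drives rtTA, a doxycycline-dependent activator. By the series design, deletion began in Clara cells early in gestation and in type II cells near term. The genotype label of the deleted groups does not name Cre. Nothing says that the 3 arrays of a group came from separate animals, so p-values measure only the spread between these samples. That spread may be technical, and the small number of arrays limits the precision.

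C/EBP proteins are basic leucine zipper factors that bind DNA as dimers with one another or with related factors. C/EBPα accompanies terminal differentiation in fat, liver, myeloid cells and the distal lung epithelium, where it is linked to surfactant lipid and protein production. C/EBPβ and C/EBPδ are inducible in inflammation, and C/EBPε acts late in granulocyte maturation. C/EBPγ lacks the activation domain of the others and works as a dimer partner, and CHOP, the product of Ddit3, is a stress-induced partner that turns C/EBP dimers away from their usual sites.

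The 250 bases before the annotated start were read from RefSeq (GRCm38.p6) for the 4 members that matched the promoter table, Cebpa, Cebpb, Cebpg and Ddit3, because these include the deleted gene and the 2 other members whose genotype difference averaged over times was called. Cebpd and Cebpe had no entry. The windows are chr7:35119043-35119292 (plus strand) for Cebpa, chr2:167688665-167688914 (plus) for Cebpb, chr7:35056567-35056816 (minus) for Cebpg and chr10:127290543-127290792 (plus) for Ddit3. Each is printed 5′ to 3′, and capitals mark a match, on either strand, to one of 6 motifs searched.
Cebpa: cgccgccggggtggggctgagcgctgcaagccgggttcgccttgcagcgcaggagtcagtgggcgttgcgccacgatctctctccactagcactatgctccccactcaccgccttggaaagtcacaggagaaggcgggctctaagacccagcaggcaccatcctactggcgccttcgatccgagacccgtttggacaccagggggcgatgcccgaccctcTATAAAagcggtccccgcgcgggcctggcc
Cebpb: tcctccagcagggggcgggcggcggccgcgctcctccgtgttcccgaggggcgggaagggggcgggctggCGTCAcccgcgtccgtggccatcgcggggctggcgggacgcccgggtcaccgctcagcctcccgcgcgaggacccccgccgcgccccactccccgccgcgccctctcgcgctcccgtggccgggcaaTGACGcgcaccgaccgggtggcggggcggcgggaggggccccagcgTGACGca
Cebpg: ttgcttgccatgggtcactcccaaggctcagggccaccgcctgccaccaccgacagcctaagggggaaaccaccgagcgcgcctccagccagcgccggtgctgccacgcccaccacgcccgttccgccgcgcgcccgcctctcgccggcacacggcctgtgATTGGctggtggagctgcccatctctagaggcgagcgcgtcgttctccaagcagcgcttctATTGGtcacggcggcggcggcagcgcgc
Ddit3: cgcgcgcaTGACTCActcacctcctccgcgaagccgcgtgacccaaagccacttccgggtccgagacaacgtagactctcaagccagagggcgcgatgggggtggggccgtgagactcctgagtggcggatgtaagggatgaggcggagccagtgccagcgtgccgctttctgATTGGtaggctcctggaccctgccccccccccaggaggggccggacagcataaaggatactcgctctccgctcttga

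The motifs were the C/EBP site TTGCNNAA, the C/EBP-ATF composite site TTGCATCA, the CREB half-site TGACG, the AP-1 site TGANTCA, the CCAAT box CCAAT and the TATA box TATAAA. The Cebpa window holds 1 TATAAA, 30 to 25 bases before the start, a motif found in 12.4% of the 32851 promoter windows of this length. The Cebpb window holds 3 TGACG matches (17.8% of windows hold at least 1). The Cebpg window holds 2 CCAAT matches on the opposite strand, 89 to 85 and 28 to 24 bases before the start (33.8% of windows). The Ddit3 window holds 1 TGANTCA, 242 to 236 bases before the start (6.75% of windows), and 1 CCAAT on the opposite strand. No motif overlapped another in these windows, and no window holds the letters TTGCNNAA or TTGCATCA, which occur in 9.56% and 0.791% of all windows. GC content was 66.4% for Cebpa, 81.6% for Cebpb, 70.8% for Cebpg and 64.8% for Ddit3, against a median of 52.4%. Cebpa and Cebpg lie close together on chromosome 7, with 1 protein-coding gene model, Gm45095, between them.

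Levels below are log2 RMA values, and Cebpa-deleted minus control is given as the genotype difference. The spread of values on an array differed between times. Its interquartile range over all genes was 2.89 to 3.06 at 0 h, 2.13 to 2.55 at 2 h, 2.44 to 2.52 in controls at 24 h and 1.82 to 2.13 in Cebpa-deleted cells at 24 h. Time and batch cannot be told apart. The part of the unequal spread in any result was not tested beyond the other settings given beside it. At 24 h the array ranges of the genotypes did not overlap, and every 0 h array lay above every later array. A fit with array range as covariate can therefore take up differences of genotype at 24 h and changes from 0 h. A call lost in that fit does not tell range from genotype or time.

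Marker genes of several cell types also differed by genotype. The mean of 12 type II cell markers lay between 12.94 and 12.999 on control arrays and at 12.86 on the 3 Cebpa-deleted arrays at 0 h, and at 2 h the ranges overlapped, at 12.24 to 12.47 and 11.95 to 12.47. None of the 12 was called by limma at 0 or 2 h, although 6 were lower at 2 h with array range as covariate. At 24 h it lay between 12.15 and 12.24 in controls and between 11.33 and 11.70 in Cebpa-deleted cells, with 11 of 12 markers called lower, against 26.4% of all genes. The mean of 10 endothelial markers was 8.15 to 8.47 in controls against 9.19 to 9.49 in Cebpa-deleted cells at 0 h, and 8.19 to 8.83 against 9.18 to 9.30 at 24 h. Of these 10 markers 7 were called higher at 0 h (0 after any 1 array was left out) and 10 at 24 h (5 without control replicate 1, and 8 or 10 without any other array of that time). At 2 h 10 endothelial markers were called higher, against 1.20% of all genes, and 0 to 10 when 1 array was left out. With array range as covariate 0 type II and 0 endothelial markers were called at 24 h, whereas after quantile normalization 9 of each were, type II lower and endothelial higher. At 0 and at 2 h 10 endothelial markers were called higher with that covariate, and 0 and 6 after quantile normalization. At 24 h 5 of 7 type I cell markers were called lower. Of 10 macrophage markers 1 was higher and 3 lower, and of 6 Clara cell markers 2 were higher (24.3% of all genes). After quantile normalization 1 type I and 1 macrophage marker were lower and 4 Clara cell markers higher. With array range as covariate 0 in these lists were called. Leaving out 1 array gave 3 to 5 type I and 2 to 4 macrophage markers lower and 0 to 2 Clara cell markers higher. RMA values on a log scale have no zero, so no marker can be said to be absent.

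Across the family, Cebpa had the largest genotype difference at 2 h, at 24 h and averaged over the times, and at 0 h Cebpg (0.46) and Cebpa (-0.43) differed by about the same size in opposite directions. A gene was called at a limma adjusted p below 0.05, adjusted over all 19938 genes. At 0 h 0 of 6 members were called by limma, against 0.858% of all genes (0.677% higher, 0.181% lower). Ordered by p at 0 h, Cebpg ranked 244, Ddit3 861, Cebpa 1229 and Cebpb 1388 among the 19938 genes. At 2 h 2 of 6 were called, Cebpa lower and Cebpg higher, against 1.40% of all genes (1.20% higher, 0.206% lower). At 24 h Cebpa, Cebpe and Ddit3 were called, 3 of 6 against 50.7% of all genes, which is no more than the background. Without Cebpa-deleted replicate 4 the 24 h count was 5, and without another array of that time it was 1 or 3. Averaged over the times, Cebpa, Cebpg and Ddit3 were called, 3 of 6 against 16.9%. The genotypes did not overlap for 3 of 6 members at 0 h (17.3% of all genes), 3 of 6 at 2 h (12.5%) and 2 of 6 at 24 h (62.1%).

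**Figure D1:**
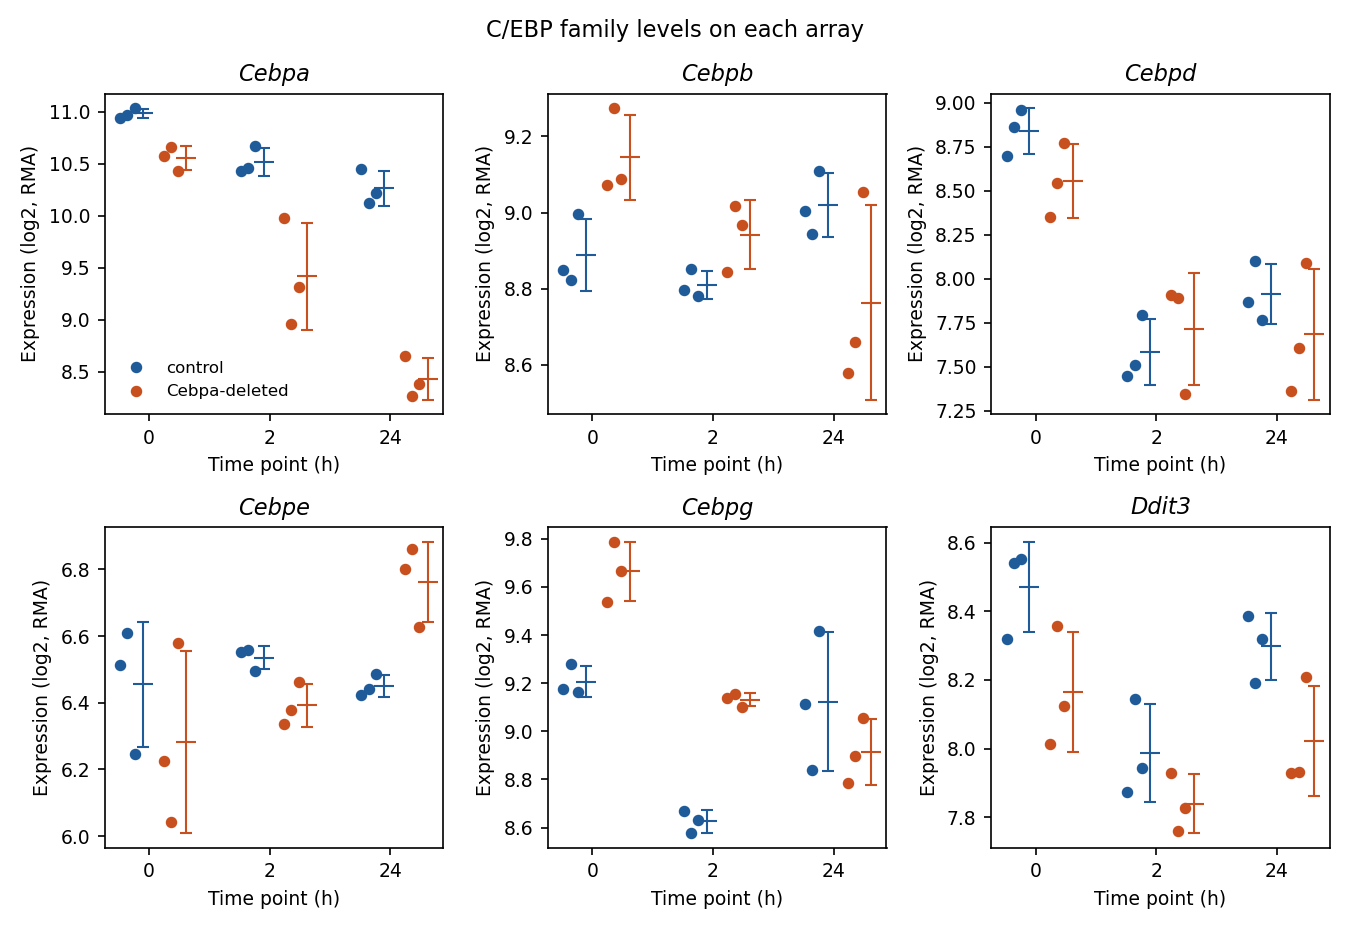
Level of each C/EBP family gene (log2, RMA, vertical axis) on each of the 18 arrays against the time point in hours, with control arrays in blue and Cebpa-deleted arrays in orange; bars give the mean and SD of 3 arrays. Cebpa separates the genotypes at each time, from 8.26 to 8.66 in Cebpa-deleted cells at 24 h against 10.12 to 10.45 in controls, while the vertical axes of the other genes span less.

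Cebpa was lower in Cebpa-deleted cells than in controls at each time, and the difference was called at 2 and 24 h. At 0 h the control arrays read 10.95, 10.98 and 11.04 and the Cebpa-deleted arrays 10.58, 10.66 and 10.43. At 2 h the controls read 10.43, 10.46 and 10.68 and the Cebpa-deleted arrays 9.98, 8.96 and 9.31. At 24 h the controls read 10.45, 10.12 and 10.22 and the Cebpa-deleted arrays 8.66, 8.26 and 8.38. Every Cebpa-deleted array lay below every control array of its time, and the first of the 2 h Cebpa-deleted arrays, replicate 2, was closest to the controls.

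As genotype differences these values are -0.43 at 0 h (SE 0.18, limma adjusted p = 0.429), -1.10 at 2 h (adjusted p = 0.00461) and -1.83 at 24 h (adjusted p = 8.19e-06), so 74.3%, 46.6% and 28.1% of the control level remained. The average over the times was -1.12 (95% interval -1.34 to -0.91). An exact two-sided permutation of the genotype labels within each time gave p = 0.00025, the smallest that its 8000 relabellings can give. Leaving out any array kept the calls at 2 and 24 h, but the 2 h call was lost with only the 6 arrays of that time in the fit (adjusted p = 0.173), and the 24 h call with the array range as a covariate (-1.30, adjusted p = 0.138). The sources used here do not place the probes on the gene, so it is unknown whether they fall within the deleted stretch or outside it. In bulk RNA, fewer type II cells and less Cebpa RNA per cell cannot be told apart, and type II markers were lower on the same 24 h arrays.

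The within-array rank of Cebpa, its percentile among all genes of the array, does not depend on the width of the values. In controls it was 97.1 to 97.4 at 0 h, 97.4 to 97.7 at 2 h and 95.8 to 97.2 at 24 h. In Cebpa-deleted cells it was 95.2 to 96.2, 86.2 to 95.1 and 79.99 to 86.4. By rank, then, the genotypes overlapped at none of the times, and the controls' own decline was small. The deposited log2 values of control Cebpa fell by 0.46 between 0 and 2 h (adjusted p = 0.0265) and by 0.72 between 0 and 24 h (adjusted p = 0.00211), but after quantile normalization the first was 0.094 and the second -0.23 (adjusted p = 0.315). The first was also lost in 4 of 6 fits without an array, all but those without control replicate 1 at 0 h and control replicate 3 at 2 h.

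The genotype difference in Cebpa was itself larger at 24 h than at 0 h, by -1.41 (SE 0.25, adjusted p = 0.00747) and, after quantile normalization, by -1.16 (adjusted p = 0.0220). This call was kept in 12 of 12 fits that left out an array. Between 2 and 24 h the corresponding value was -0.73 (adjusted p = 0.0368), kept in 6 of 12 such fits, and it was -0.42 after quantile normalization (adjusted p = 0.262). Between 0 and 2 h it was -0.67 (adjusted p = 0.650).

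**Figure D2:**
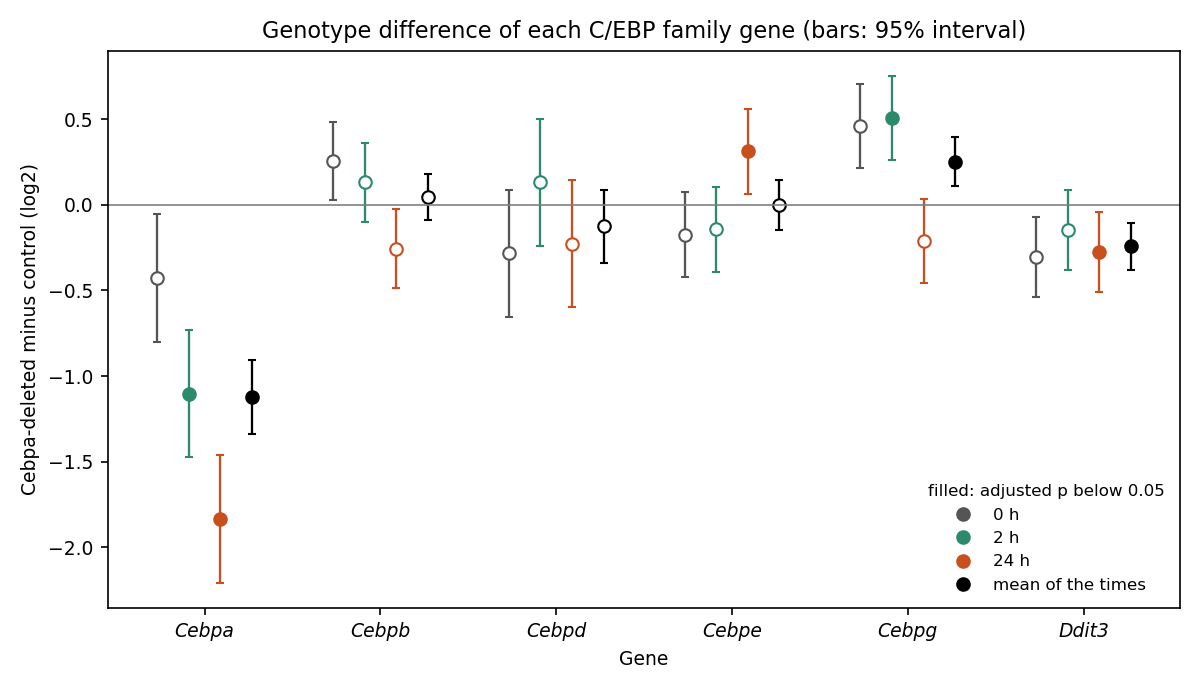
Genotype difference of each C/EBP family gene (Cebpa-deleted minus control, log2, vertical axis) at 0, 2 and 24 h and averaged over the times, with 95% intervals from the fit; filled points have a limma adjusted p below 0.05. Cebpa runs from -0.43 to -1.83, whereas the differences of the other 5 genes lie between -0.31 and 0.51.

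The average genotype difference of the 5 other members lay above that of Cebpa by 1.17 for Cebpb, 0.995 for Cebpd, 1.12 for Cebpe, 1.37 for Cebpg and 0.88 for Ddit3. In 5 exact two-sided permutation tests within times the unadjusted p ran from 0.00025 to 0.00175. This compares each gene's change and not its level, since levels of different probes were not compared. Cebpa is the deleted gene, so a small p here can come from Cebpa alone. Cebpe averaged -0.0018, with p = 0.98 in its own exact permutation test, and still gave p = 0.00125 for the difference from Cebpa. The 5 tests therefore cannot tell whether another member changed.

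Cebpb, the inducible family member of inflammation and liver, showed no genotype difference that was called. The controls read 8.85, 8.82 and 8.997 at 0 h, 8.80, 8.85 and 8.78 at 2 h and 9.005, 8.94 and 9.11 at 24 h. The Cebpa-deleted arrays read 9.07, 9.27 and 9.09 at 0 h, 8.84, 9.02 and 8.97 at 2 h and 8.58, 8.66 and 9.05 at 24 h. The Cebpa-deleted arrays were therefore all higher at 0 h, whereas at 2 h and at 24 h the genotypes overlapped. The differences were 0.26 (95% interval 0.03 to 0.49, limma adjusted p = 0.454), 0.13 (adjusted p = 0.760) and -0.26 (-0.49 to -0.03, adjusted p = 0.0593).

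Single arrays weighed on the 24 h value of Cebpb. Without Cebpa-deleted replicate 4 it was -0.40 (adjusted p = 0.00285), and after quantile normalization it was 0.084 (adjusted p = 0.551). The difference at 24 h was lower than that at 0 h by -0.51 (adjusted p = 0.0395), a call kept in 3 of 12 fits without an array and lost after quantile normalization (-0.17, adjusted p = 0.473). Its percentile on the array was 78.1 to 80.9 in controls at 0 h, against 82.2 to 84.2 in Cebpa-deleted cells. At 24 h the ranges overlapped, at 85.4 to 87.3 and 85.4 to 89.1. Averaged over the times, the difference was 0.044 (95% interval -0.089 to 0.18), which leaves out an average change as large as that of Cebpa in either direction. That average joins a positive difference at 0 h and a negative one at 24 h. At 0 h alone the Cebpb interval, 0.03 to 0.49, reaches past the size of the Cebpa difference at that time (-0.43).

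Cebpd, the other inducible member, differed little by genotype but was lower at 2 and 24 h than at 0 h in both genotypes. The controls read 8.70, 8.86 and 8.96 at 0 h, 7.45, 7.51 and 7.80 at 2 h and 7.87, 8.10 and 7.77 at 24 h. The Cebpa-deleted arrays read 8.35, 8.54 and 8.77, then 7.91, 7.89 and 7.35, then 7.36, 7.60 and 8.09. The 6 arrays at 0 h lay above the 12 later arrays, and at each time the genotypes overlapped. The genotype differences were -0.28, 0.13 and -0.23 (adjusted p = 0.713, 0.883 and 0.284), and the average was -0.13 (95% interval -0.34 to 0.087). Without Cebpa-deleted replicate 4 the 24 h difference was -0.43 (adjusted p = 0.0422).

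In controls Cebpd fell by 1.25 at 2 h relative to 0 h (SE 0.18, limma adjusted p = 1.05e-05) and by 0.93 at 24 h (adjusted p = 0.000253). In Cebpa-deleted cells it fell by 0.84 (adjusted p = 0.000563) and by 0.87 (adjusted p = 0.000216). After quantile normalization the 4 changes were -0.85, -0.54, -0.53 and -0.40, and all but the last were called (adjusted p = 0.0647). Its percentile in controls went from 76.0 to 80.2 at 0 h to 60.2 to 66.4 at 2 h and 66.2 to 72.1 at 24 h, lower at both later times. In Cebpa-deleted cells it was 71.5 to 77.4 at 0 h, 57.0 to 68.4 at 2 h and 58.7 to 74.6 at 24 h, so by rank the 24 h arrays overlapped those at 0 h. With the array range as a covariate none of the 4 changes was called, and in Cebpa-deleted cells the values turned to 0.082 and 0.66. The interaction of genotype with time was not called in any comparison of 2 times.

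Cebpe, the granulocyte member, lay in the lower part of each array, at the 33.1 to 43.9 percentile. The controls read 6.51, 6.61 and 6.25 at 0 h, 6.55, 6.56 and 6.50 at 2 h and 6.42, 6.44 and 6.49 at 24 h. The Cebpa-deleted arrays read 6.22, 6.04 and 6.58, then 6.34, 6.38 and 6.46, then 6.80, 6.86 and 6.63. The genotypes overlapped at 0 h, the Cebpa-deleted arrays were all lower at 2 h, and they were all higher at 24 h.

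Cebpe rose by 0.31 at 24 h (SE 0.12, limma adjusted p = 0.0365), and the differences at 0 and 2 h were -0.17 and -0.14 (adjusted p = 0.757 and 0.759). The 24 h call was kept only without Cebpa-deleted replicate 4 among the 6 fits that left out an array, and after quantile normalization the value was 0.17 (adjusted p = 0.183). In Cebpa-deleted cells alone Cebpe rose by 0.48 between 0 and 24 h (adjusted p = 0.00125) and by 0.37 between 2 and 24 h (adjusted p = 0.0259), with 0.26 and 0.29 after quantile normalization (adjusted p = 0.0247 and 0.0310). The second of these was called in 2 of 6 fits without an array, those without replicate 4 at 2 h and replicate 4 at 24 h. Neutrophil markers also differed by genotype at 24 h. Of 12 markers 5 were called higher and 0 lower at 24 h, where 24.3% of all genes were higher. Their mean was 5.66 to 5.74 in controls against 6.06 to 6.12 in Cebpa-deleted cells. The 5 became 2 after quantile normalization, 0 with array range as covariate, and 3 without control replicate 1 or Cebpa-deleted replicate 1. In controls 6 of these 12 markers were called higher and 1 lower from 0 to 2 h, and again from 0 to 24 h. Of all genes 70.1% and 59.9% were called in these comparisons. Cebpe changed by 0.080 and -0.0055 in them and was not called. The part of neutrophil markers in the Cebpe value was not tested.

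Cebpg, the partner without an activation domain, was higher in Cebpa-deleted cells at 2 h and averaged over the times. The controls read 9.18, 9.28 and 9.16 at 0 h, 8.67, 8.58 and 8.63 at 2 h and 9.11, 8.84 and 9.42 at 24 h. The Cebpa-deleted arrays read 9.54, 9.79 and 9.67, then 9.14, 9.15 and 9.10, then 8.79, 8.90 and 9.06. At 0 and 2 h every Cebpa-deleted array lay above every control array of its time, and at 24 h the genotypes overlapped.

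The differences in Cebpg were 0.46 at 0 h (SE 0.12, limma adjusted p = 0.0800), 0.51 at 2 h (adjusted p = 0.0357) and -0.21 at 24 h (adjusted p = 0.137), or 137%, 142% and 86.5% of the control level. The 2 h call was kept in 1 of 6 fits without an array, namely when Cebpa-deleted replicate 2 was removed (adjusted p from 0.0407 to 0.164, values from 0.48 to 0.53). The 24 h value was 0.14 after quantile normalization, and -0.35 without control replicate 2 (adjusted p = 0.0203). Averaged over the times, Cebpg was higher by 0.25 (95% interval 0.11 to 0.39, adjusted p = 0.0170), a call kept in 18 of 18 fits without an array, with p = 0.039 in the exact two-sided permutation test. By rank, the Cebpa-deleted arrays were at the 88.2 to 90.1 percentile at 0 h and 87.3 to 89.1 at 2 h, above the controls at 83.1 to 84.6 and 81.1 to 84.0. At 24 h the ranges were 88.2 to 90.2 and 84.0 to 90.8.

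The Cebpg difference at 24 h was lower than at 0 h by -0.67 (adjusted p = 0.0218) and than at 2 h by -0.72 (adjusted p = 0.00824). These calls were kept in 9 and 12 of 12 fits without an array, and after quantile normalization the values were -0.31 and -0.32, neither called. In controls Cebpg fell by 0.58 at 2 h relative to 0 h (adjusted p = 0.000299) and rose by 0.50 between 2 and 24 h (adjusted p = 0.00901). The rise was also called after quantile normalization (0.40, adjusted p = 0.0269), but not without control replicate 3 (0.35, adjusted p = 0.0607). The fall was not (-0.094, adjusted p = 0.525). In Cebpa-deleted cells Cebpg fell by 0.75 from 0 to 24 h (adjusted p = 1.36e-05), against -0.0046 after quantile normalization.

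Ddit3, which encodes CHOP, was lower in Cebpa-deleted cells at 24 h and averaged over the times, by less than Cebpa. The controls read 8.32, 8.54 and 8.55 at 0 h, 7.87, 8.15 and 7.94 at 2 h and 8.38, 8.19 and 8.32 at 24 h. The Cebpa-deleted arrays read 8.01, 8.36 and 8.13, then 7.93, 7.76 and 7.83, then 7.93, 7.93 and 8.21. The genotypes overlapped at each time, at 0 and 24 h through 1 high Cebpa-deleted array.

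The differences in Ddit3 were -0.31 at 0 h (limma adjusted p = 0.324), -0.15 at 2 h (adjusted p = 0.723) and -0.28 at 24 h (SE 0.11, adjusted p = 0.0483). The 24 h call was kept in 2 of 6 fits without an array, those without control replicate 2 and Cebpa-deleted replicate 4 (adjusted p from 0.0145 to 0.161), and the value was -0.021 after quantile normalization and 0.046 with array range as covariate. Averaged over the times, Ddit3 was lower by 0.24 on the log2 scale (difference -0.24, 95% interval -0.38 to -0.11, adjusted p = 0.0165, exact two-sided permutation p = 0.003). That call was kept in 18 of 18 fits without an array and missed after quantile normalization (-0.16, adjusted p = 0.0541). By rank the 24 h ranges overlapped, at 73.7 to 76.2 in controls and 73.6 to 76.7 in Cebpa-deleted cells. Ddit3 fell from 0 to 2 h by 0.48 in controls (adjusted p = 0.00102) and by 0.33 in Cebpa-deleted cells (adjusted p = 0.0174), and neither was called after quantile normalization (-0.086 and -0.038).

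Changes over time were read against the large share of all genes called in the same comparisons. From 0 to 2 h 4 of 6 members were called in controls and 4 of 6 in Cebpa-deleted cells, against 70.1% and 63.1% of all genes. From 0 to 24 h 2 and 5 of 6 were called, against 59.9% and 77.6%, and from 2 to 24 h 1 and 2, against 12.4% and 31.4%. The interaction of genotype with time was called for 0 of 6 members between 0 and 2 h (0% of all genes, with Cebpa at an unadjusted p of 0.0148). It was called for 3 of 6 between 0 and 24 h (14.3%) and for 3 of 6 between 2 and 24 h (30.8%). These comparisons share groups of arrays and are not independent of one another.

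**Figure D3:**
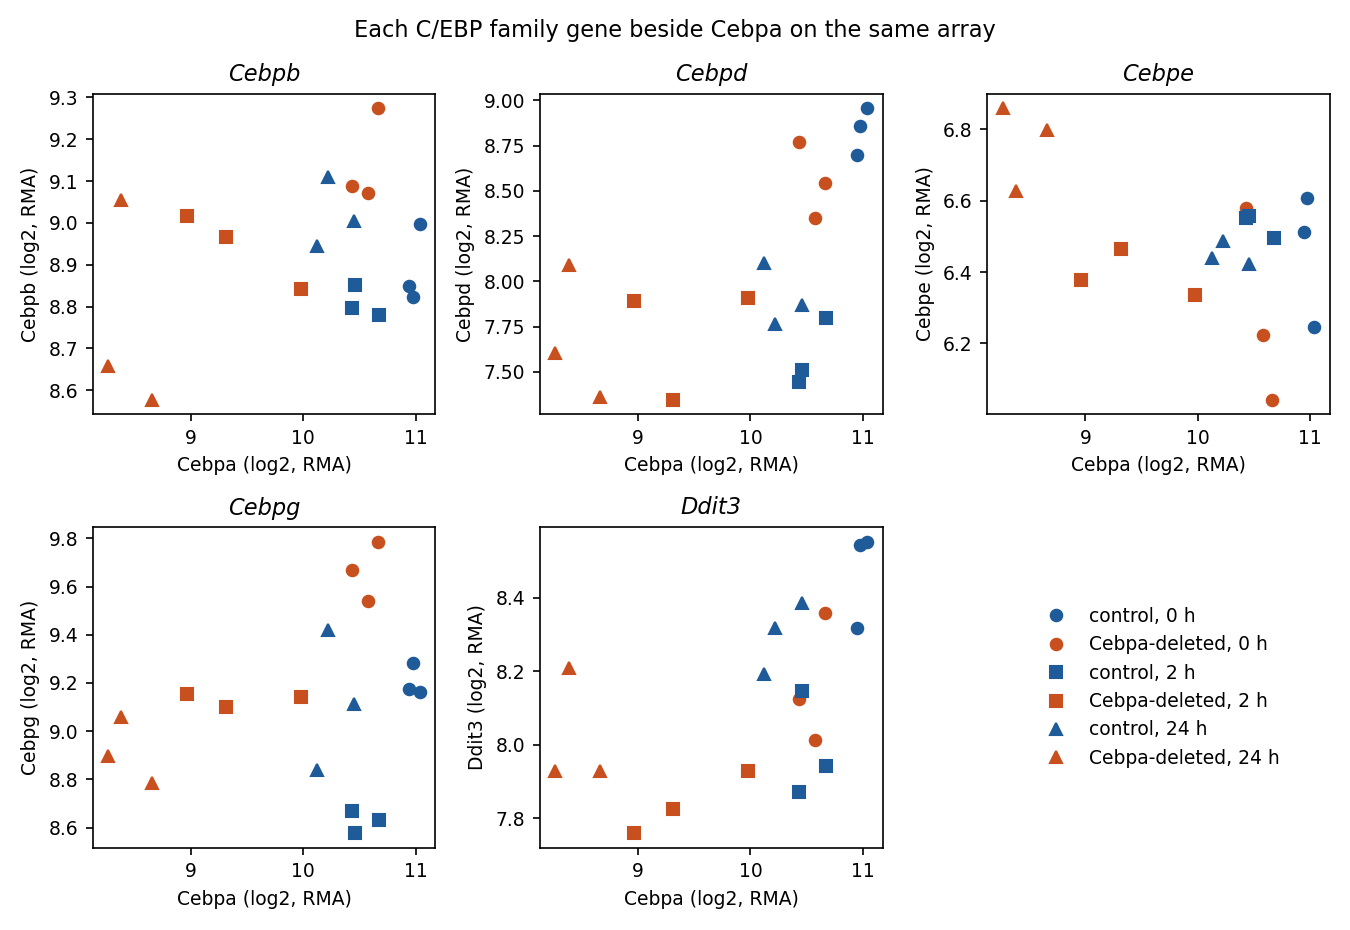
Level of each other C/EBP family gene (log2, RMA, vertical axes) against the level of Cebpa on the same array (log2, RMA, horizontal axes), 18 arrays, with color for the genotype and marker shape for the time. At 24 h the Cebpa-deleted arrays sit at the left, between 8.26 and 8.66 for Cebpa, and Cebpg at 0 and 2 h lies higher in Cebpa-deleted than in control arrays.

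Set beside Cebpa array by array, with the mean of each time removed, the other members ran from a moderate likeness to none. Pearson's r with Cebpa over the 18 arrays was 0.66 for Ddit3, 0.21 for Cebpd, 0.12 for Cebpb, -0.20 for Cebpg and -0.325 for Cebpe. Within the family the highest value was that of Cebpb with Cebpg (0.74) and the lowest that of Cebpb with Cebpe (-0.74). The genotype difference was left in the values, so r with Cebpa also reflects each gene's genotype difference. These are descriptions of arrays that share groups and scaling, not tests.

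The genes most like Cebpa were picked by r from across the array, so an r above that of its own relatives is no finding. The 5 of highest r with Cebpa were Gjb6, a gap junction connexin (0.98), the complement component C6 (0.98), the RNA-binding protein gene Rbms3 (0.98), the integrin subunit gene Itga9 (0.97) and Acoxl, an acyl-CoA oxidase-like gene (0.97). Over the 12 arrays at 0 and 2 h alone r was 0.95 to 0.98 for these genes, and after quantile normalization it was 0.96 to 0.98. The same arrays were used to pick the genes, so neither value is an independent check. C6 read 9.66, 8.64 and 8.90 on the 2 h Cebpa-deleted arrays, so replicate 2, the highest for Cebpa, was also the highest for C6. Gjb6 read 7.34, 6.62 and 6.85 on the same arrays.

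As genotype differences, at 2 and 24 h, C6 was -1.14 and -1.98, Itga9 -0.97 and -1.95, Gjb6 -0.88 and -1.40, Acoxl -0.71 and -1.69, and Rbms3 -0.56 and -1.16. These genes were picked for their likeness to Cebpa on the same arrays, so their genotype differences are a description and no test. Genes of opposite pattern were Neurl3, a ubiquitin ligase gene (r = -0.95), Ltbp1, which encodes a latent TGF-β binding protein (-0.95), the lymphocyte GTPase gene Gimap4 (-0.92), Tmcc3 (-0.92) and the elastin gene Eln (-0.92). Ltbp1 read 6.30, 6.45 and 6.52 in controls and 6.74, 6.63 and 6.66 in Cebpa-deleted cells at 0 h, and 6.62, 6.92 and 6.72 against 7.27, 7.46 and 7.50 at 24 h. Endothelial, lymphocyte and fibroblast markers were also higher in Cebpa-deleted cells at 24 h, in 10 of 10, 6 of 8 and 6 of 10 genes, against 24.3% of all genes. After quantile normalization the counts were 9, 5 and 7, and with array range as covariate 0 in each list. Without control replicate 3, Cebpa-deleted replicate 1 or Cebpa-deleted replicate 2 the lymphocyte count was 4. The part of these markers in the patterns was not tested.

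**Figure D4:**
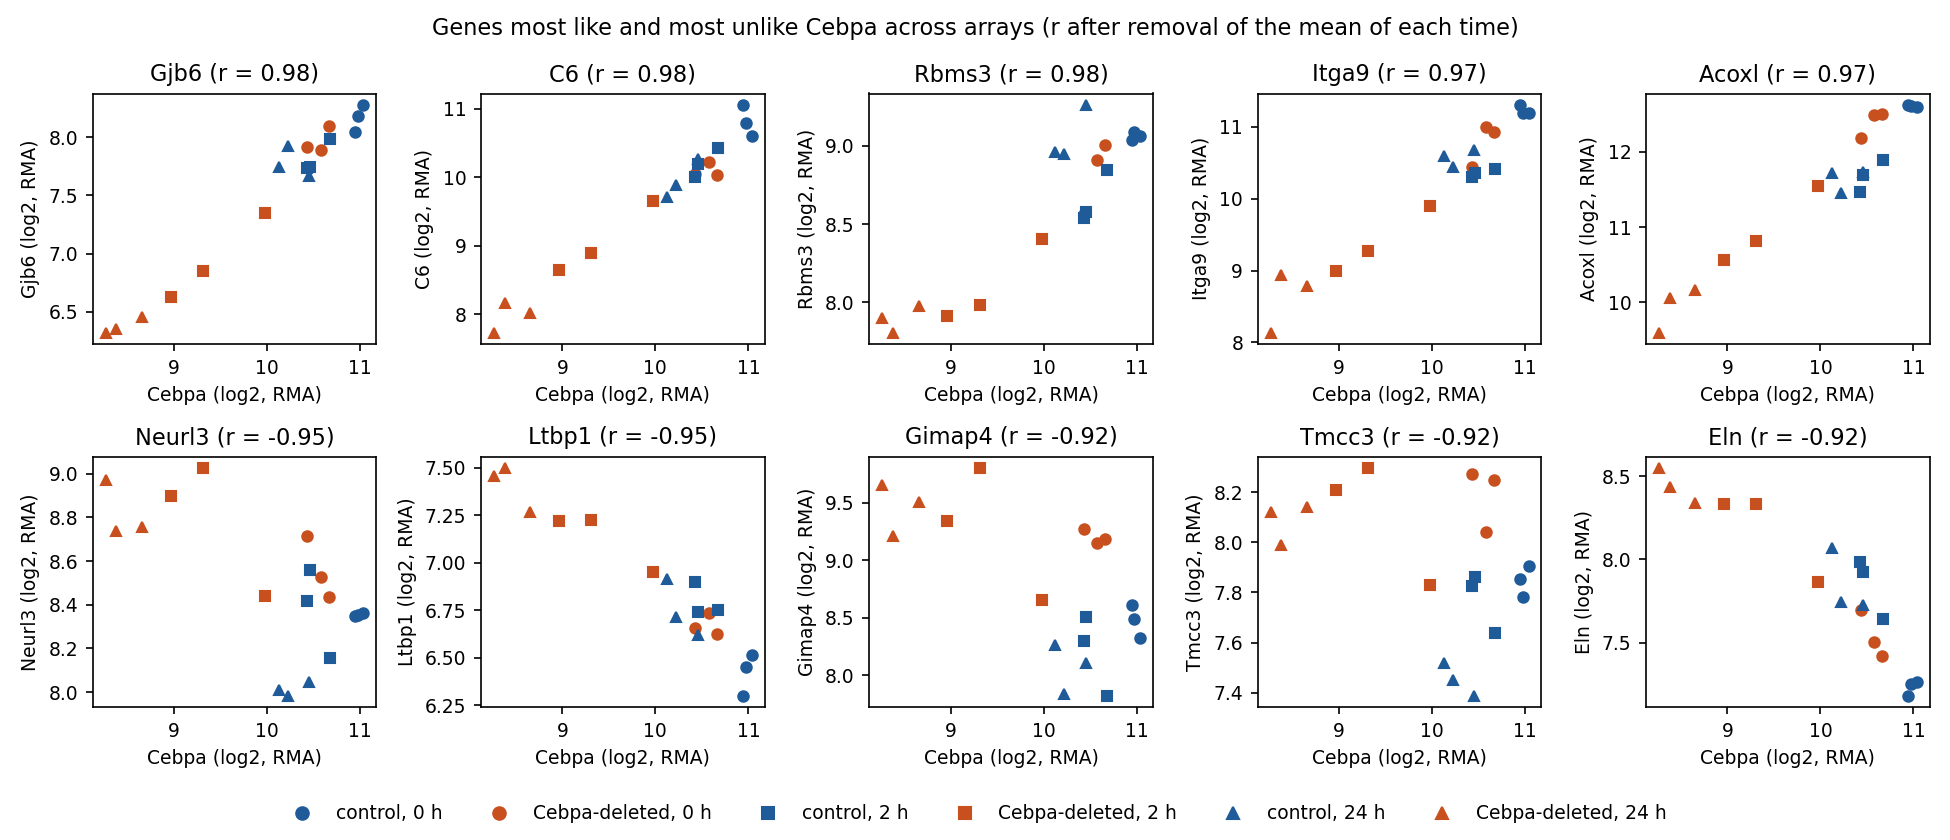
Levels of the 5 genes most like Cebpa (upper row) and the 5 most unlike it (lower row) on each of the 18 arrays (log2, RMA, vertical axes) against the level of Cebpa (log2, RMA, horizontal axes). Pearson's r, after the mean of each time was subtracted, is 0.97 to 0.98 in the upper row and -0.95 to -0.92 in the lower row.

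The other members had less close company. For Cebpg the 3 genes of highest r were Wars, a tryptophanyl-tRNA synthetase gene (0.88), the actin regulator gene Wasf2 (0.86) and Sbf2 (0.86), all picked on the same arrays. Their genotype differences at 2 and 24 h were 0.47 and -0.26 for Wars, 0.40 and -0.097 for Wasf2, and 0.30 and -0.26 for Sbf2, so each was positive at 2 h and negative at 24 h, as Cebpg was (0.51 and -0.21). For Ddit3 they were Cbarp (0.90), the stress-induced gene Ddit4 (0.87) and Dusp11 (0.85). For Cebpe they were Extl1 (0.93), Zfp423 (0.90) and the macrophage gene Aif1 (0.90). For Cebpb they were Taf9 (0.85), Rin2 (0.84) and Lrrc58 (0.84), and for Cebpd Rrbp1 (0.86), Slc44a3 (0.86) and Zfp707 (0.83). The value of Rrbp1 fell to 0.40 after quantile normalization, and that of Cbarp to 0.65.

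Genes around the family were taken from 4 lists: basic leucine zipper partners, regulators of C/EBP levels or activity, candidate C/EBP targets and stress genes around Ddit3. At 0 h 1 gene of the 4 lists was called, Il1b, an inflammatory cytokine known to induce C/EBPβ and C/EBPδ. It was higher by 0.68 (limma adjusted p = 0.0300), and a regulator was called higher in 2 of 6 fits without an array. At 2 h 0 of 20 partners were called. Of 30 candidate targets 3 fell, the paraoxonase gene Pon1 (-1.26), Il6 (-1.02) and the acidic chitinase gene Chia1 (-0.99), of 26 regulators 1 fell, again Il6, and of 22 stress genes 1 rose, the death receptor gene Tnfrsf10b (0.64). Of all genes 0.206% were called lower and 1.20% higher at 2 h. Pon1, Il6 and Chia1 were already known to be lower in these data when the list of candidate targets was drawn up. Pon1 and Chia1 are not established C/EBP targets, so the count of 3 gives no independent support for a direction. The count of candidate targets that fell was 8 without Cebpa-deleted replicate 2, 1 without Cebpa-deleted replicate 3 or 4 or control replicate 3, 2 without control replicate 1 or 2, and 8 with array range as covariate.

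At 24 h, where 24.3% of all genes were called higher and 26.4% lower, partners and stress genes were lower more often than higher. Of 20 partners 10 fell and 1 rose, with a median of -0.30 beside 0.046 for all genes. Atf3 (-0.94), Fosb (-0.93), Nfil3 (-0.74), Atf4 (-0.59) and Jund (-0.52) fell and Batf2 rose (0.62). Of 22 stress genes 15 fell and 0 rose, with a median of -0.44. The asparagine synthetase gene Asns (-0.99), Atf3, Sesn2 (-0.82), the chaperone gene Dnajb9 (-0.78), the phosphatase subunit gene Ppp1r15a (-0.73) and the oxidase gene Ero1a (-0.70) had the largest falls. Atf3 read 12.30 to 12.42 in controls and 11.17 to 11.73 in Cebpa-deleted cells, and Asns 10.60 to 10.94 and 9.43 to 10.21.

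Of 26 regulators 12 fell and 1 rose at 24 h, with a median of -0.17. Without Cebpa-deleted replicates 2 and 1 in turn 5 and 6 regulators fell, and without each other array of that time 8 to 11. Il6 (-1.98), the lipid synthesis regulator Srebf1 (-0.67), Klf4 (-0.63), the pseudokinase gene Trib3 (-0.61) and Cdk2 (-0.48) fell, and Trib2, another pseudokinase gene, rose (0.83). Trib2 read 7.65 to 7.90 in controls and 8.37 to 8.76 in Cebpa-deleted cells. Averaged over the times 3 of 26 regulators were called higher and 3 lower, where 16.9% of all genes were called. Among these regulators Trib2 was higher by 0.70 (adjusted p = 0.000393). Spi1, the myeloid factor PU.1, was higher by 0.34 (adjusted p = 0.0166) and Trib1 lower, at -0.24 (adjusted p = 0.0131).

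Of 30 candidate targets 12 fell and 5 rose at 24 h, with a median of 0.037. The count of 5 that rose was 4 without control replicate 1 or Cebpa-deleted replicate 4, 3 without control or Cebpa-deleted replicate 2, 2 without control replicate 3 and 1 without Cebpa-deleted replicate 1. Lcn2, a siderophore-binding defence protein gene (-2.40), Chia1 (-2.04), Il6, the fatty acid synthesis gene Acaca (-1.28), Pon1 (-1.25) and the surfactant protein gene Sftpd (-1.20) had the largest falls. These 6 genes were already known to be lower in these data when the list was drawn up, and Pon1 and Chia1 are not established C/EBP targets, so the list gives no independent support for a direction. The genes that rose were the granule gene Ltf (1.08), Orm1 (0.59), Mpo (0.44), Orm2 (0.43) and Cyp2f2 (0.24). Ltf and Mpo are also among the neutrophil markers, and Cyp2f2 among the Clara cell markers.

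These counts depended on the scaling of the arrays. After quantile normalization 4 partners fell and 2 rose (median -0.076), 8 stress genes fell and 2 rose (-0.17), 13 candidate targets fell and 5 rose (-0.19), and the regulators turned, with 3 lower, 7 higher and a median of 0.12. With the array range as a covariate no member of the 4 lists was called at 24 h, where 4 genes of all were. The array ranges of the genotypes did not overlap at 24 h, so that fit cannot tell range from genotype there.

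**Figure D5:**
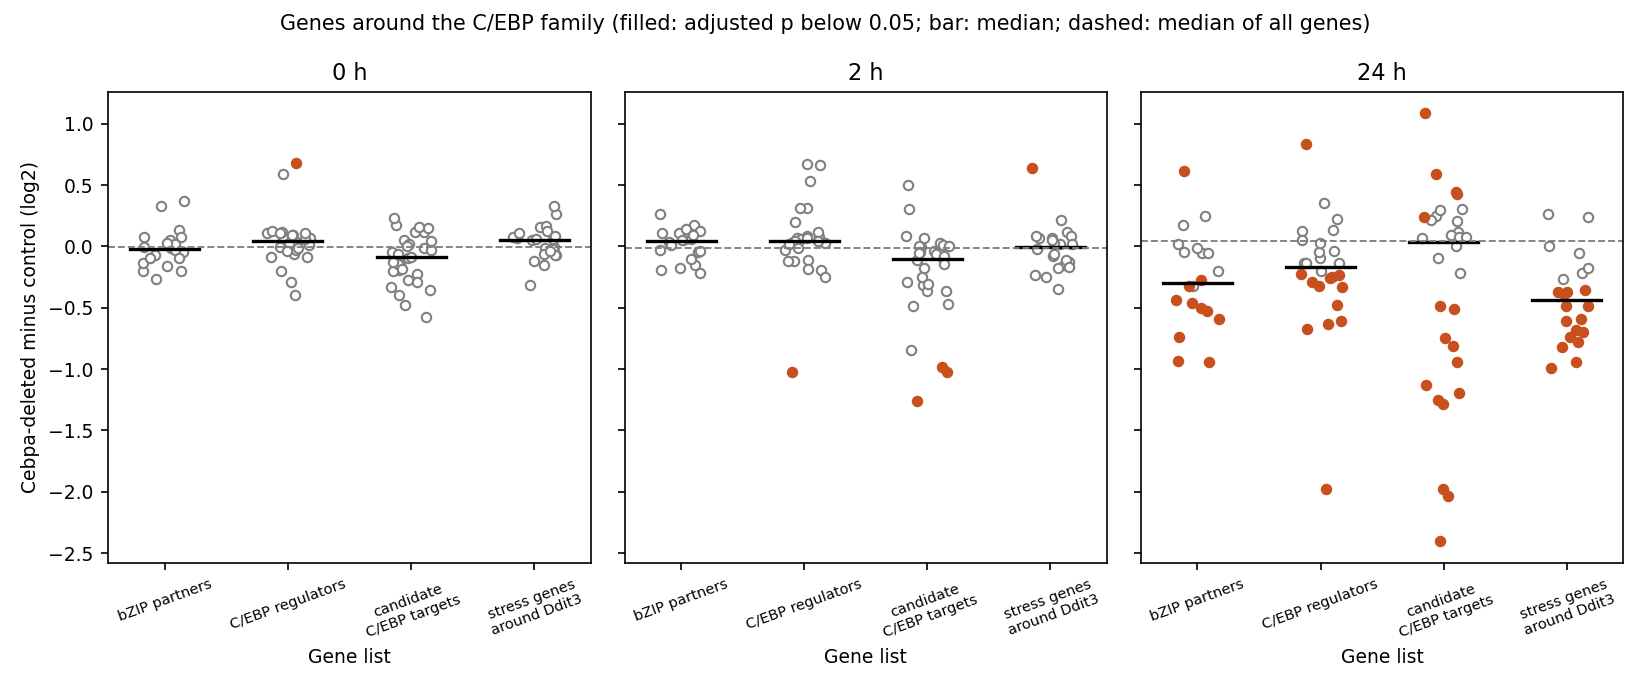
Genotype difference (Cebpa-deleted minus control, log2, vertical axis) of each gene in 4 lists around the C/EBP family at 0, 2 and 24 h; filled points have a limma adjusted p below 0.05, the bar is the list median and the dashed line the median of all genes. Calls are few at 0 and 2 h, and at 24 h the stress genes have a median of -0.44 beside 0.046 for all genes.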

How the data were processed

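The authors deposited log2 values made with RMA, per the submitters' processing notes. Which arrays were normalized together and the RMA version are not given in the sources used here. Of 35557 features, 21789 carried 1 gene symbol, 1621 several and 12147 none, and 21698 of the first were matched by Entrez identifier. Only features with 1 symbol were used. Where several features shared a gene, as for 999 genes, the brightest on average stood for it, which gave 19938 genes and no filter on low values. Control and Cebpa-deleted groups came from the titles, and 0 arrays were identical.

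One linear model with a mean per group was fitted to the 18 arrays with limma 3.58.1 in R 4.3.3 (lmFit, eBayes), and p-values are two-sided, adjusted by the Benjamini-Hochberg method over all genes. Replicate numbers were checked as pairs: in 7 same-numbered pairs r lay between -0.24 and 0.06. No pairing by number was visible, and the main fit used none, but so few pairs cannot exclude it. The members and lists were chosen with earlier results of these data known. Text names the 6 members, the genes of highest or lowest r with a member, passing over RIKEN and predicted genes, and up to 6 called genes of largest change per list and comparison. The further 24 h rises of candidate targets were named after their values were seen. In simulated data over 19938 genes the fit recovered 26% of genes changed 1.3-fold and 72% of those changed 1.5-fold. It recovered 94% of those changed 2-fold and 100% of those changed 3-fold, with 3 false calls. The simulated arrays were drawn around the control means at 0 h, with the same spread in every group. Only 50 genes were changed at each fold. The real 24 h comparison called 50.7% of all genes on arrays of unequal range, so these rates do not describe it. Promoter sequences are from RefSeq (GRCm38.p6). Figures were drawn with matplotlib 3.10.9.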

Additional observations from a re-analysis of the deposited data

Results flagged for a closer look

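The 6 results below are differences between times in the genotype difference, each called by the limma test of that difference itself (adjusted p below 0.05). For Cebpa the 24 h genotype difference was lower than the 0 h one by -1.41 and than the 2 h one by -0.73. For Cebpg the corresponding values were -0.67 and -0.72. For Cebpb the 24 h difference was lower than the 0 h one by -0.51, and for Cebpe it was higher than the 2 h one by 0.45. The array range was narrowest in Cebpa-deleted cells at 24 h. After quantile normalization the 24 against 0 h value of Cebpa was still called (-1.16, adjusted p = 0.0220), and the other 5 were not, at -0.42 for Cebpa (adjusted p = 0.262), -0.31 and -0.32 for Cebpg (adjusted p = 0.227 and 0.182), -0.17 for Cebpb (adjusted p = 0.473) and 0.30 for Cebpe (adjusted p = 0.136). With array range as covariate none of the 6 was called, but that fit cannot tell range from genotype at 24 h.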

How the results depend on the processing

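Of 48 results on single members, direction and call were unchanged in 48 with every feature tested alone, the mean of a gene's features or trend and robust eBayes, in 44 with arrays centred on their medians, 29 after quantile normalization and 17 with array range as covariate. With only the arrays compared they were unchanged in 37 of 42, which leaves out the average, and with the upper 60 percent of genes in 41 of 41, which leave out Cebpe. The exact permutation within times, likeness over 12 arrays and likeness after quantile normalization were chosen after seeing the data, and the first kept 6 of 6 averages. The cause of each change below was not tested.

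Quantile normalization turned the control change of Cebpa from 0 to 2 h to 0.094, the Cebpa-deleted change of Cebpb from 0 to 24 h to 0.32 and the 24 h genotype differences of Cebpb and Cebpg to 0.084 and 0.14. The array range turned the first 2 to 0.31 and 0.033, the Cebpa-deleted changes of Cebpd to 0.082 (2 h) and 0.66 (24 h), of Cebpe to -0.11 and of Ddit3 (2 h) to 0.053, and the genotype differences of Cebpd to -0.028 (2 h), 0.56 (24 h) and 0.10 (average) and of Ddit3 to 0.046 (24 h). It left Cebpa at -1.30 at 24 h (adjusted p = 0.138). With only the 6 arrays at 2 h Cebpa was -1.10 (adjusted p = 0.173).

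The replicate number as a block, with numbers not known to pair the arrays, left 39 of 48 unchanged. It turned the averages of Cebpb and Cebpe to -0.0079 and 0.011, lost the calls of Cebpg on average (0.24, adjusted p = 0.0639) and at 2 h (0.46, adjusted p = 0.175) and of Cebpe at 24 h (0.33, adjusted p = 0.0690), and gave 1 member and 62 genes called at 2 h and 1924 genes on average.

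Members called were 1 at 0 h and 0 at 24 h with the array range, 1 at 24 h after quantile normalization, and at 2 h 1 with centred arrays and 0 with only the arrays compared. All genes called were 171, 280, 10110 and 3366 at 0, 2 and 24 h and on average. The array range gave 274, 999, 4 and 796, quantile normalization 8 at 0 h and 6697 at 24 h, and only the arrays compared 1 at 2 h. Leaving out each array gave 32 to 139, 25 to 729, 6128 to 10988 and 2163 to 5783 genes, 1 to 2 members at 2 h and 1 to 5 at 24 h, and averages of -0.0045 to 0.075 for Cebpb and -0.051 to 0.038 for Cebpe. The highest counts came without Cebpa-deleted replicate 2 at 2 h (729 at that time, 5783 on average) and the lowest at 2 h without replicate 3 (25).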
